A study of Mus musculus with 30 samples.

Results

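The 9 genes described here are Cx3cr1, P2ry12, Tmem119, Csf1r, Aif1, Trem2 and the C1q chain genes C1qa, C1qb and C1qc, which mark microglia or are made mainly by them in the brain. They were taken by name from the 53278 genes of the SVZ count table and the 50508 genes of the striatum count table. All 9 were counted in every library and all 9 passed the filter on low counts, as did 16375 genes in the SVZ and 15419 in the striatum. The study asked what the loss of endogenous neural precursor cells (eNPCs) of the subventricular zone (SVZ), a germinal layer on the wall of the lateral ventricle, does to the neighbouring striatum. NestinTK+ mice carried a thymidine kinase transgene under a Nestin enhancer, so that ganciclovir (GCV) kills dividing cells that express it, and NestinTK- mice were littermates without it. Adult C57Bl/6 mice received GCV or PBS for 4 weeks from an osmotic minipump under the skin, and each mouse gave 1 SVZ and 1 striatum RNA-seq library. The 15 mice formed the groups NestinTK+GCV+ (5, the ablated mice), NestinTK-GCV+ (3), NestinTK-PBS+ (3) and NestinTK+PBS+ (4), and the last 3 groups were pooled as 10 controls.

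Microglia are the resident macrophages of the brain parenchyma. They depend on the receptor encoded by Csf1r for survival, with Csf1 and Il34 as its ligands, and they sense neuronal fractalkine (Cx3cl1) through Cx3cr1 and extracellular nucleotides through P2ry12. Trem2 encodes a lipid-sensing receptor that signals through the adaptor Tyrobp, Aif1 encodes the actin-binding protein Iba1, and Tmem119 encodes a membrane protein used to tell microglia from other macrophages. The products of C1qa, C1qb and C1qc assemble into C1q, the recognition molecule of the classical complement pathway, which also tags synapses for removal by microglia.

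The 3 C1q genes lie side by side on chromosome 4 of GRCm38 in the GENCODE vM21 annotation, all on the minus strand, with C1qb at chr4:136880129-136886187, C1qc at chr4:136889804-136893065 and C1qa at chr4:136895917-136898803. Trem2 (chr17:48346401-48354147, plus strand) and Aif1 (chr17:35170991-35176068) share chromosome 17, and Cx3cr1 (chr9:119901616-120069879), P2ry12 (chr3:59216272-59262871) and Tmem119 (chr5:113793729-113800516) lie alone on theirs. Exons of Csf1r share 873 of 5774 bases with Hmgxb3 on the other strand. Whether strand was used in counting is not given in the sources used here, so reads of the 2 genes may not be told apart there. Promoter windows from RefSeq (GRCm38.p6) were matched for 6 of the 9 genes. The letters GAGGAA, the purine core bound by the macrophage factor PU.1, or their reverse complement TTCCTC, occurred in the 250 bases before the start of 4 of these 6 (C1qb, C1qc, Aif1 and Trem2) and in 23.3% of all 32851 windows of that length. They did not occur in the windows of Cx3cr1 and P2ry12. The windows of C1qb (chr4:136886201-136886450, minus strand) and Trem2 (chr17:48346151-48346400, plus strand) are shown 5′ to 3′ as examples of a complement and a receptor gene, with the match in capitals. A match of 6 letters is a description and not a binding site.
C1qb: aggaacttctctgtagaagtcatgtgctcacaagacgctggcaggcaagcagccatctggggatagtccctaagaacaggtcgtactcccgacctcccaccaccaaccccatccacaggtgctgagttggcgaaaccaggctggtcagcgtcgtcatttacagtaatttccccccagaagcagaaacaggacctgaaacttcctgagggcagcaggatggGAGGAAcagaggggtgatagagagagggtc
Trem2: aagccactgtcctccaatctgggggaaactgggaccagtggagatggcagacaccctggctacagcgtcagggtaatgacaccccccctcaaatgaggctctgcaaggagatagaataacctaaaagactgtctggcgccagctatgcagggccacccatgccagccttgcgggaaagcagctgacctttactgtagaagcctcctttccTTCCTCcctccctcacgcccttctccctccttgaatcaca

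Library totals ran from 8.36 M to 21.1 M counts (M for mega) in the SVZ and from 2.63 M to 4.69 M in the striatum, and no 2 libraries were identical. The ablated libraries were at the shallow end in both tissues, with at most 9.60 M counts in the SVZ and at most 3.37 M in the striatum. The SVZ samples are labelled as neural precursor cells, but the protocol describes dissected and frozen tissue, and markers of microglia and of medium spiny neurons were counted in every SVZ group. The choroid plexus gene Ttr took 4.49% to 9.88% of counts in 3 SVZ control libraries (NestinTK-PBS+ replicates 1 and 2 and NestinTK+PBS+ replicate 1) and at most 0.0789% in the other 12. As a check of the ablation, the neuroblast gene Dcx had a mean of 20.8 CPM (counts scaled by library size with TMM factors) in the ablated and 55.7 in the control SVZ libraries (log2 fold change -1.38, SE 0.365). Of 10 neuroblast genes, 9 had lower fitted values in ablated mice. At a nominal p of at most 0.01 and at least 2-fold, 5 were lower, beside 1.59% of all genes passing, and 0 had an adjusted p under 0.05 in edgeR. Against the NestinTK-GCV+ libraries, 9 were lower and 1 met that threshold, beside 0.940% of all genes.

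Per kilobase of exon, the C1q genes were the highest of the 9 in the 10 SVZ control libraries. C1qb had 86.1 ± 26.5 CPM per kb (mean ± SD), C1qa 56.6 ± 17.6 and C1qc 47.3 ± 12.2. Csf1r followed at 14.6 ± 4.45, then Tmem119 at 12.6 ± 7.06, P2ry12 at 12.3 ± 3.96, Aif1 at 11.8 ± 7.80 and Cx3cr1 at 10.1 ± 2.79, and Trem2 was lowest at 7.06 ± 3.41 CPM per kb. Only the step from C1qc down to Csf1r exceeded the spread: the lowest C1qc library had 29.3 and the highest Csf1r library 21.0 CPM per kb, whereas every other pair of neighbours in this order overlapped. In the 5 ablated libraries the 3 C1q genes again came first, in the same order, and Trem2 again came last at 4.33 ± 1.79. The striatum libraries count 3′ tags, for which a length scaling does not apply, so no order of genes is given there and no level is compared between the tissues.

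In the SVZ, none of the 9 genes met the threshold of the study (nominal p of at most 0.01 and at least 2-fold) between ablated and control mice, whereas 260 of all 16375 genes did (1.59%). Fitted log2 fold changes ran from -0.67 for Trem2 to 0.55 for Csf1r, with 6 genes above and 3 below 0 and a median of 0.22, beside -0.027 for all genes tested. The median was 0.14, 0.13 and 0.36 without NestinTK+GCV+ replicates 3, 4 and 5, and 0.0027 with the NestinTK-GCV+ libraries as the only controls. No member passed an adjusted p of 0.05 in edgeR's quasi-likelihood test either, as 1 gene of the whole table did (0.00611%), and their adjusted p-values ran from 0.406 to 0.958. One member, Csf1r, was among the 9.81% of all genes with an unadjusted p under 0.05. DESeq2 and limma-voom also called none of the 9, and both put P2ry12 beside Csf1r at an unadjusted p under 0.05.

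Csf1r, the receptor for CSF-1 and IL-34, had 87.9, 116, 125, 138 and 134 CPM in the 5 ablated SVZ libraries. It had 44.9, 82.5 and 66.3 CPM in NestinTK-GCV+, 63.8, 108 and 69.6 in NestinTK-PBS+, and 96.2, 118, 121 and 70.0 in NestinTK+PBS+ libraries. The ablated libraries were mostly high but overlapped both PBS groups, as no member separated the ablated from all control libraries, and 0.256% of all genes did. The fold change of Csf1r was 1.47 (95% interval 1.08 to 1.99, adjusted p = 0.406). Hmgxb3, which shares exon bases with it, had a log2 fold change of 0.0067 with an SE of 0.791. The mouse numbers fall into 2 series, one of which holds controls only, and with the series as a covariate Csf1r had a log2 fold change of 0.51 (SE 0.256) and no member had an unadjusted p under 0.05.

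Trem2, the lipid-sensing receptor, had 32.2, 29.0, 11.9, 19.0 and 14.8 CPM in the ablated SVZ libraries. The NestinTK-GCV+ libraries had 74.3, 41.8 and 33.1 CPM, the NestinTK-PBS+ libraries 21.0, 27.3 and 47.0, and the NestinTK+PBS+ libraries 25.3, 37.6, 14.8 and 26.8. One ablated library lay below the lowest control library (14.8 CPM) and the other 4 lay within the control range, with a fold change of 0.628 (95% interval 0.369 to 1.07, adjusted p = 0.582).

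The purinergic receptor gene P2ry12 was the steadiest member among the ablated SVZ libraries, at 37.2 to 48.7 CPM, while the controls spread from 18.0 to 47.6 with a median of 28.3. Its fold change of 1.45 had a 95% interval from 0.998 to 2.09 (adjusted p = 0.514). The fractalkine receptor gene Cx3cr1 had 41.2 ± 18.9 CPM in ablated and 45.3 ± 12.6 in control libraries, and Tmem119 had 34.8 ± 15.6 and 29.3 ± 16.3. These 2 genes differed by less than the spread between libraries.

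**Figure D1:**
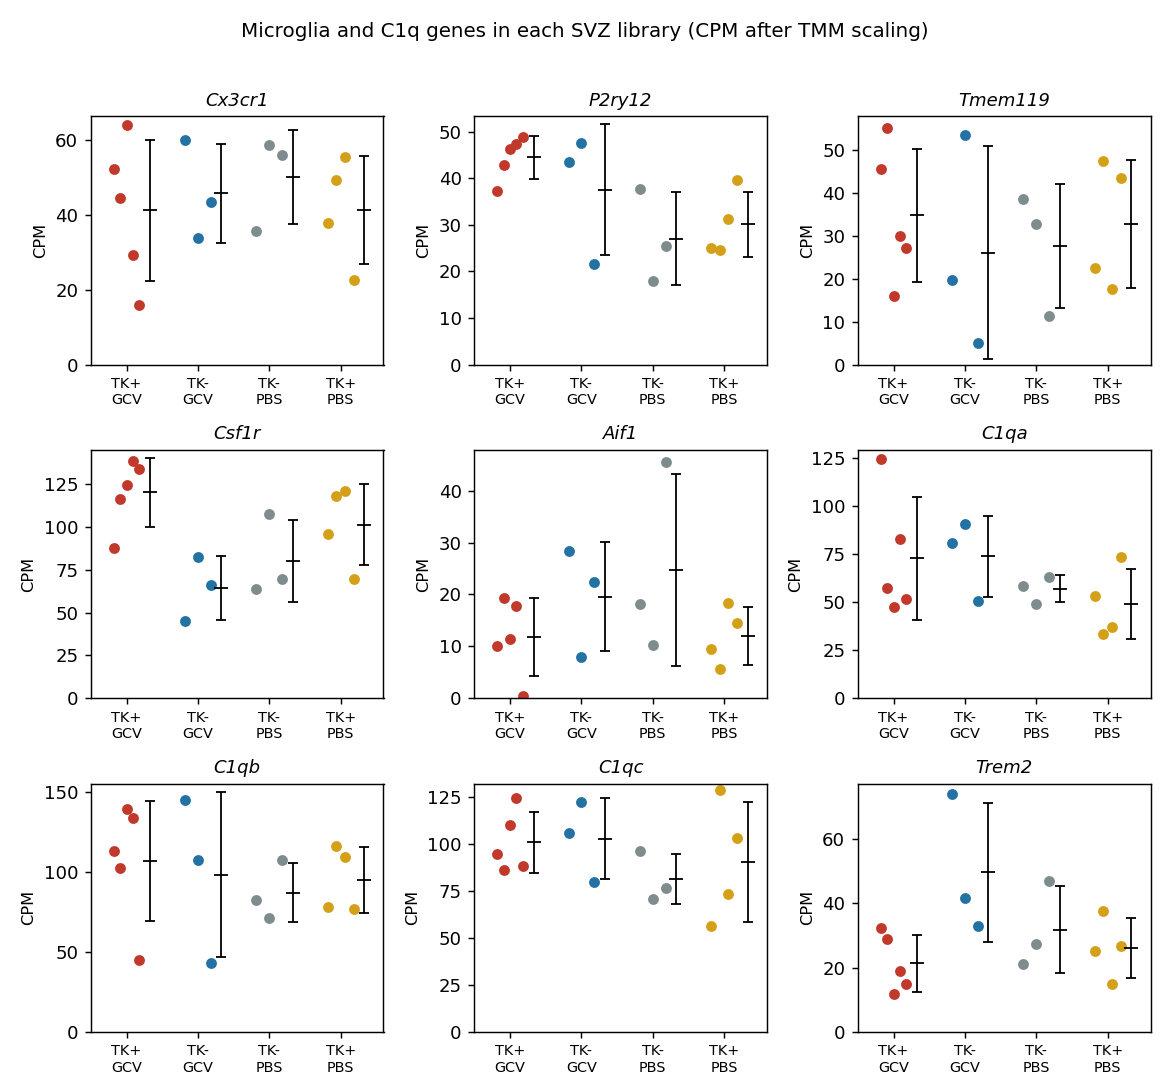
Each point is 1 SVZ library, in CPM after TMM scaling, for the 9 genes by group, and the bar beside each group gives its mean ± SD (n = 5, 3, 3 and 4). Csf1r lies high in the ablated libraries (87.9 to 138 CPM) and Trem2 low (11.9 to 32.2 CPM), and both overlap the controls.

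The C1q genes had higher means in the ablated than in the control SVZ libraries, by less than the spread between libraries. C1qa had 72.6 ± 32.0 CPM in ablated and 58.8 ± 18.3 in control libraries, C1qb 106.8 ± 37.7 and 93.6 ± 28.9, and C1qc 100.8 ± 16.2 and 91.4 ± 23.6. The intervals of all 3 stayed within 2-fold, as did those of Cx3cr1 and Csf1r, and those of P2ry12, Tmem119, Aif1 and Trem2 did not. Aif1 had the widest one, from -1.86 to 0.70 on the log2 scale. One ablated library, NestinTK+GCV+ replicate 5, had 0.490 CPM of Aif1 (4 counts) beside 9.99 to 19.4 in the other 4, and was also the lowest ablated library for Cx3cr1 (16.0 CPM) and C1qb (45.1 CPM), but among the highest for Csf1r and P2ry12. Without that library the log2 fold change of Aif1 was -0.27.

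The 9 genes together summed to between 427 and 623 CPM in the ablated, 365 and 602 in NestinTK-GCV+, 447 and 502 in NestinTK-PBS+, and 404 and 561 in NestinTK+PBS+ SVZ libraries, so the groups overlapped. In these bulk samples fewer microglia and less of these transcripts per cell cannot be told apart. Beside these values, mitochondrial transcripts took 13.1% to 17.0% of counts in ablated and 6.69% to 15.2% in control SVZ libraries, and all 8 choroid plexus genes had lower fitted values in ablated mice (median log2 fold change -5.65, 4 called). The choroid plexus genes summed to 18.3 to 251 CPM in ablated and 12.0 to 193 CPM in NestinTK-GCV+ libraries, and GCV against PBS in NestinTK- mice gave a median of -10.7 for them. Their part in the members' values was not tested. Without the 3 libraries rich in Ttr none of the 9 was called, and Csf1r and Trem2 had an unadjusted p under 0.05.

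In the striatum, none of the 9 genes met the study's threshold between ablated and control mice, beside 107 of 15419 genes (0.694%), and none passed an adjusted p of 0.05, beside 28 genes (0.182%). The fitted values were smaller and more even than in the SVZ: 8 genes lay below 0 and 1 above, from -0.37 for Trem2 to 0.012 for C1qc, with a median of -0.21 beside 0.0037 for all genes. All 9 intervals stayed within 2-fold. C1qa was the 1 member among the 10.5% of genes with an unadjusted p under 0.05, and it was so in DESeq2 and limma-voom too, neither of which called any member. It lost that status in 9 of 15 fits that left out 1 library and with either PBS group as the only controls.

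C1qa, the A chain of C1q, had 159, 172, 143, 170.1 and 217 CPM in the ablated striatum libraries. The NestinTK-GCV+ libraries had 193, 246 and 247 CPM, the NestinTK-PBS+ libraries 194, 211 and 214, and the NestinTK+PBS+ libraries 192, 212, 156 and 186. Of the ablated libraries, 4 lay below the lowest NestinTK- library, and replicate 5 lay above most controls. The fold change was 0.841 (95% interval 0.711 to 0.995, adjusted p = 0.457).

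The fitted values of the other C1q chains were nearer 0, and the difference between chains was not tested. C1qb had 20.8 ± 4.98 CPM in ablated and 23.5 ± 3.49 in control striatum (log2 fold change -0.17, SE 0.164), and C1qc had 36.8 ± 4.89 and 36.6 ± 6.25 (0.012, SE 0.140). No member separated all ablated from all control striatum libraries, beside 0.532% of all genes. Oligodendrocyte genes had lower values in the same ablated libraries (8 of 8 below 0, median log2 fold change -0.64, with Mag and Ermn at adjusted p = 0.0117 and 0.0380). They summed to 2103 to 2765 CPM in ablated and 2310 to 3064 in NestinTK-GCV+ libraries. In NestinTK-PBS+ libraries they summed to 3234 to 4793 CPM and in NestinTK+PBS+ libraries to 2783 to 5921. Their part in the members' values was not tested.

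**Figure D2:**
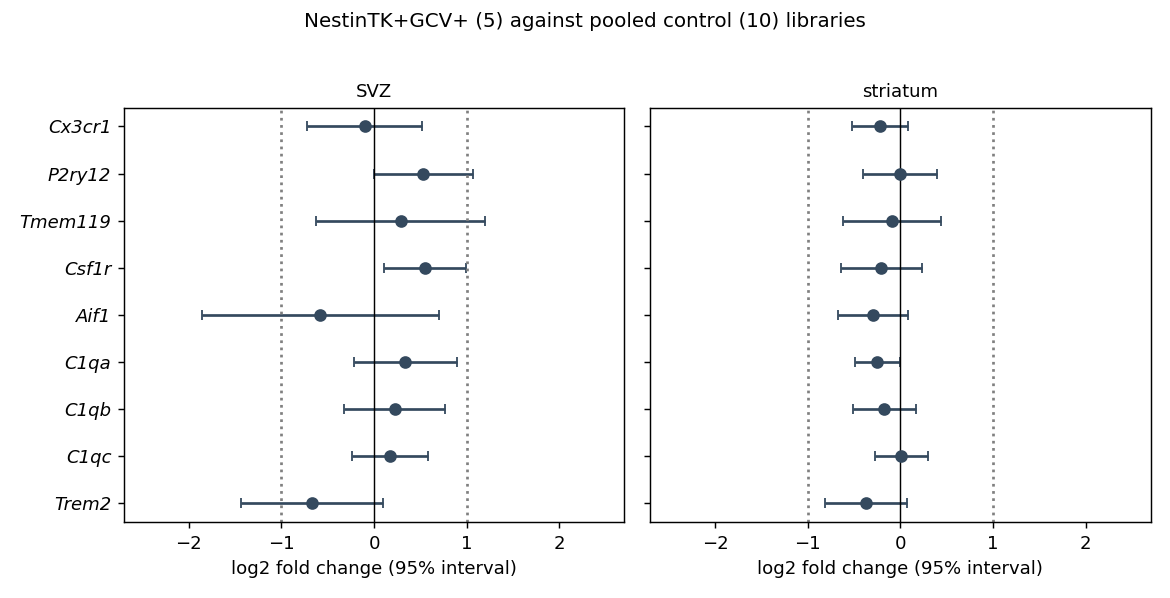
Points are log2 fold changes of the ablated (n = 5) against the pooled control libraries (n = 10) with 95% intervals from edgeR, and dotted lines mark 2-fold. In the SVZ the 9 values run from -0.67 to 0.55 with wide intervals, and in the striatum from -0.37 to 0.012 with all intervals inside 2-fold.

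The same mice gave both tissues, so the effect of ablation in the SVZ was compared with that in the striatum within mice, over 14197 genes tested in both. No member differed at an adjusted p of 0.05 in limma, where 1 gene did (0.00704%). Csf1r was the 1 member among the 10.9% of genes with an unadjusted p under 0.05. Its SVZ effect exceeded its striatum effect by 0.71 on the log2 scale (95% interval 0.078 to 1.33, adjusted p = 0.394). For C1qa the difference was 0.52 (95% interval -0.017 to 1.06, adjusted p = 0.474), and for Trem2 it was -0.30 with an SE of 0.444. A mouse's level in the SVZ gave little information on its level in the striatum: over 15 mice Pearson's r ran from -0.21 for C1qc to 0.42 for Trem2 among the 9 genes. For Trem2, Spearman's rho was 0.46 (permutation test, two-sided, p = 0.113 for r and 0.0871 for rho, adjusted over 9 relations 0.990 and 0.784), and r was 0.27 without the 2 mice farthest from the median.

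Since GCV acts on eNPCs in mice with the transgene, the 4 groups were also compared one by one. No member was called in any of these contrasts in either tissue by edgeR or by limma-voom. The members with an unadjusted p under 0.05 in edgeR were in the 3 contrasts described next. In the SVZ the share of all genes called was 1.19% for GCV against PBS in NestinTK+ mice, 0.940% for NestinTK+ against NestinTK- under GCV, 1.06% for GCV against PBS in NestinTK- mice, 0.195% for NestinTK+ against NestinTK- under PBS and 0.837% for the interaction of genotype and treatment. In the striatum the shares were 1.35%, 2.10%, 2.46%, 0.830% and 3.28% in the same order. Contrasts that hold a group in common share its libraries and are given side by side.

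Between the 2 GCV groups of the SVZ, Csf1r and Trem2 were the 2 members with an unadjusted p under 0.05, beside 7.45% of all genes, and the 2 members whose groups did not overlap, beside 3.41%. Every ablated library had more Csf1r (87.9 to 138 CPM) than every NestinTK-GCV+ library (44.9 to 82.5), a fold change of 1.90 (95% interval 1.27 to 2.84). Every ablated library had less Trem2 (11.9 to 32.2 CPM) than every NestinTK-GCV+ library (33.1 to 74.3), a fold change of 0.439 (95% interval 0.230 to 0.838). Both had an adjusted p of 0.665. Both were called without NestinTK+GCV+ replicate 1 (log2 fold changes of 1.02 and -1.38), and Csf1r was called without NestinTK-GCV+ replicate 2 (1.15). The share of all genes called in these fits was not counted, so the calls cannot be set against a background. In the same contrast all 8 endothelial genes (median log2 fold change 1.41, 2 with an unadjusted p under 0.05) and all 8 medium spiny neuron genes (median 0.29, 0 with an unadjusted p under 0.05) had fitted values above 0, and all 8 oligodendrocyte genes had values below 0 (median -0.70, 4 with an unadjusted p under 0.05). None of these genes was called, and their part in the members' values was not tested. Neither the other 28 microglia genes (14 above and 14 below 0) nor the C1q genes, with log2 fold changes of 0.0039, 0.14 and -0.0028, lay to one side in this contrast. In the SVZ, GCV against PBS in NestinTK+ mice gave 8 of 9 members above 0, beside 50.2% of all genes, with every interval across 0. Csf1r had a fold change of 1.22 there (95% interval 0.852 to 1.75) and Trem2 of 0.844 (0.461 to 1.55). GCV against PBS in NestinTK- mice, which uses the same NestinTK-GCV+ libraries, gave 0.807 for Csf1r (0.521 to 1.25) and 1.57 for Trem2 (0.749 to 3.29).

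In the striatum the NestinTK-GCV+ libraries had the highest mean Cx3cr1 and Csf1r levels of the 4 groups. They also had the highest means of C1qa and Trem2 and, by less than the spread between libraries, of C1qb, Tmem119 and Aif1. P2ry12 and C1qc had their lowest means in these libraries. Cx3cr1 had 229.5, 283 and 225 CPM there, against 172, 177, 143, 157 and 195 in ablated mice, 149, 233 and 174 in NestinTK-PBS+ and 196, 185, 137 and 155 in NestinTK+PBS+ mice. The ablated and NestinTK-GCV+ libraries did not overlap, and the fold change was 0.689 (95% interval 0.551 to 0.861, adjusted p = 0.0568). Csf1r had 47.2, 64.7 and 47.6 CPM in NestinTK-GCV+ libraries, and 26.1, 28.2, 36.1, 34.2 and 40.5 in ablated libraries, which did not overlap either. It had 29.8, 42.5 and 24.2 CPM in NestinTK-PBS+ and 37.2, 30.5, 39.2 and 18.9 in NestinTK+PBS+ libraries. Its fold change between the 2 GCV groups was 0.624 (95% interval 0.456 to 0.853, adjusted p = 0.0867).

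C1qa was the third member with an unadjusted p under 0.05 in this contrast, with a fold change of 0.755 (95% interval 0.615 to 0.926, adjusted p = 0.120), although its groups overlapped. These 3 of 9 members stand beside 17.7% of all genes. P2ry12 was the third member without overlap, in the other direction, at 15.9 to 21.2 CPM in ablated and 12.5 to 15.6 CPM in NestinTK-GCV+ libraries (fold change 1.27, adjusted p = 0.515), and 13.0% of all genes had no overlap. In all, 7 members had fold changes below 1 and P2ry12 and C1qc had fold changes above 1, with a median log2 fold change of -0.41 beside 0.023 for all genes. The other 28 microglia genes lay on both sides of 0 (13 above, 15 below, median -0.090).

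When the 3 NestinTK-GCV+ libraries were taken as the only controls in a fit of 8 striatum libraries, Cx3cr1 had a log2 fold change of -0.56 (SE 0.133) at an adjusted p of 0.0114 and Csf1r of -0.71 (SE 0.177) at an adjusted p of 0.0167. In that fit 1056 of 14536 genes (7.26%) passed the same adjusted threshold. Neither member reached 2-fold, and with either PBS group as the only controls no member had an unadjusted p under 0.05. Hmgxb3, which shares exon bases with Csf1r, had 37.4, 19.9, 28.4, 24.3 and 45.4 CPM in the ablated striatum libraries. It had 41.7, 40.6 and 37.2 CPM in the NestinTK-GCV+ libraries, and 29.8 to 41.7 CPM over all control striatum libraries. Its part in the Csf1r value was not tested.

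GCV against PBS in NestinTK- mice, which lack the transgene, uses the same 3 libraries from the other side. Csf1r had a fold change of 1.65 (95% interval 1.16 to 2.34, adjusted p = 0.126) and Cx3cr1 of 1.32 (95% interval 1.03 to 1.70, adjusted p = 0.251), which made 2 members with an unadjusted p under 0.05, beside 16.1% of all genes. The groups did not overlap for Csf1r and, with lower values under GCV, for P2ry12, beside 20.0% of all genes. GCV against PBS in NestinTK+ mice gave log2 fold changes from -0.23 to 0.12 for the 9 genes, with every interval inside 2-fold and across 0. For the interaction of genotype and treatment the smallest adjusted p of the 9 was 0.344, for Csf1r at a log2 value of -0.65 (SE 0.322). The NestinTK-GCV+ libraries had 3.76 M to 4.39 M counts and the ablated ones 2.63 M to 3.37 M, and the summed oligodendrocyte genes had 2310 to 3064 and 2103 to 2765 CPM. The summed ependymal genes had 10.0 to 16.8 CPM in the NestinTK-GCV+ libraries and at least 27.6 CPM in every library of the other 3 groups. All 8 ependymal genes had higher fitted values in ablated than in NestinTK-GCV+ mice (median log2 fold change 1.54, 3 called), and all 8 had lower ones in NestinTK-GCV+ than in NestinTK-PBS+ mice (median -1.65, 3 called). The part of depth and of these genes in the members' values was not tested.

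**Figure D3:**
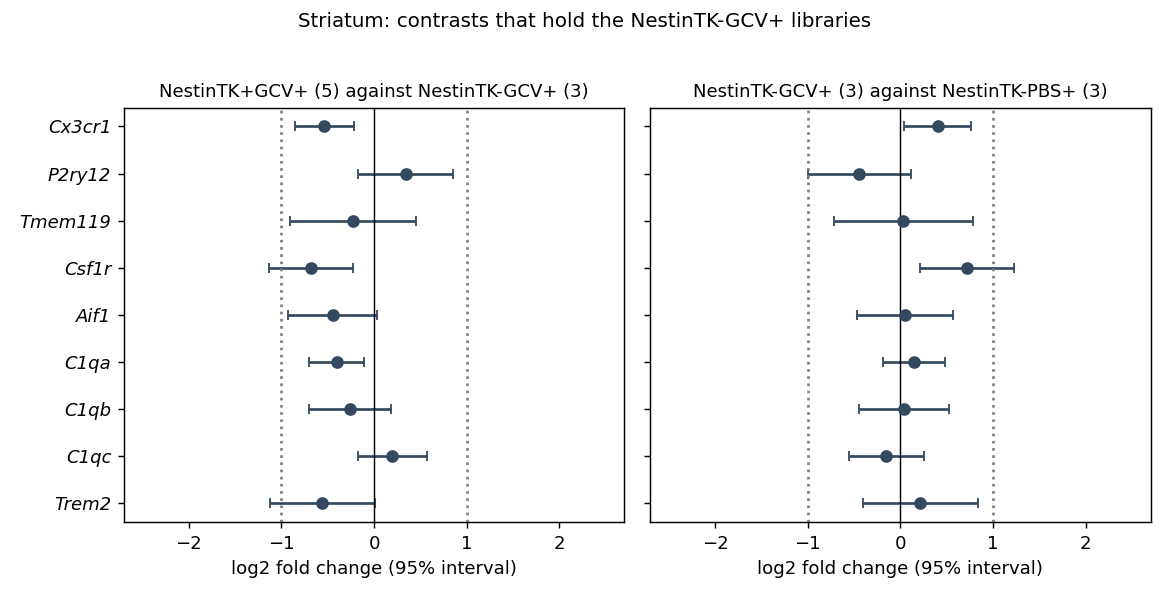
Log2 fold changes with 95% intervals of the 9 genes in the striatum, for ablated (n = 5) against NestinTK-GCV+ mice (n = 3) on the left and NestinTK-GCV+ against NestinTK-PBS+ mice (n = 3) on the right, with dotted lines at 2-fold. Cx3cr1 (-0.54) and Csf1r (-0.68) lie below 0 on the left and above 0 on the right (0.40 and 0.72), and the same 3 NestinTK-GCV+ libraries enter both panels.

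**Figure D4:**
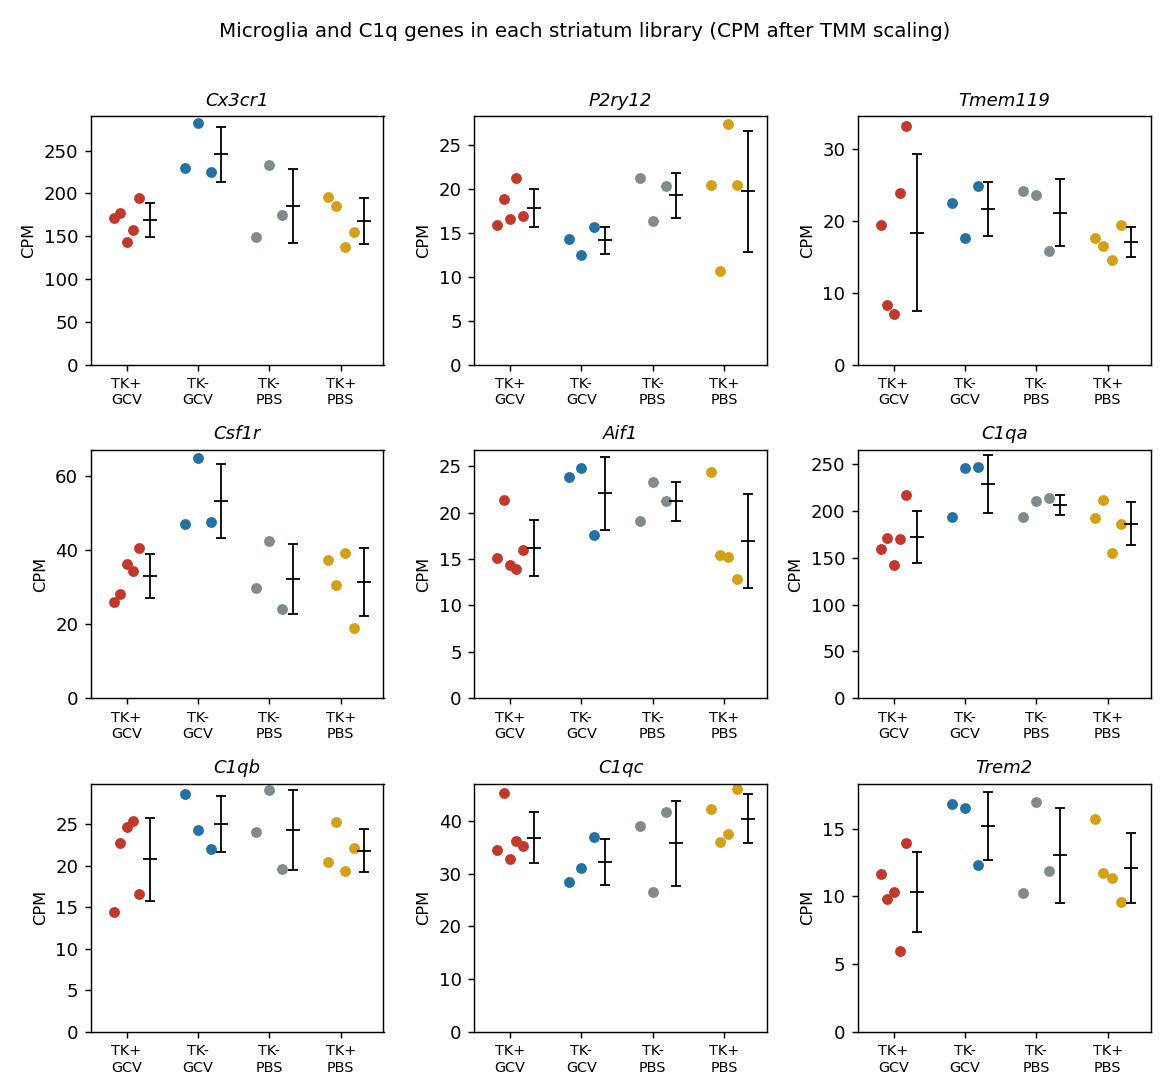
Each point is 1 striatum library, in CPM after TMM scaling, for the 9 genes by group, with the group mean ± SD beside it (n = 5, 3, 3 and 4). The 3 NestinTK-GCV+ libraries hold the highest group means of Cx3cr1, Csf1r, C1qa, Trem2, C1qb, Tmem119 and Aif1 and the lowest of P2ry12 and C1qc.

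Genes that mark 1 cell type might be thought to vary together across bulk libraries, and the 36 pairs of members were therefore correlated on log2 CPM over the 15 libraries of each tissue, which come from 4 groups. The median Pearson's r was 0.18 in both tissues. In the SVZ, r ran from -0.71 (Csf1r with Trem2) to 0.61 (Cx3cr1 with Aif1), 24 pairs were positive and no pair passed an adjusted p of 0.05 (permutation test, two-sided, adjusted over 36 pairs, 5 pairs with an unadjusted p under 0.05). For Csf1r with Trem2 the adjusted p was 0.111, Spearman's rho was -0.65, r was -0.59 in the 10 control libraries, and r was -0.68 without the 2 libraries farthest from the median.

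In the striatum, 7 of 36 pairs passed with Pearson's r, 5 of them positive. With Spearman's rho 6 pairs passed, and 5 pairs passed with both. Cx3cr1 was in 5 of the 7. It varied with C1qa (r = 0.77, rho = 0.70), Trem2 (r = 0.72, rho = 0.83), Aif1 (r = 0.69, rho = 0.75) and Csf1r (r = 0.67, rho = 0.63), and against P2ry12 (r = -0.65, rho = -0.69), with permutation p-values adjusted over the 36 pairs from 0.0295 to 0.0449 for r and from 0.0101 to 0.0617 for rho. In the 10 control libraries alone these r values were 0.77, 0.82, 0.68, 0.74 and -0.72, and without the 2 libraries farthest from the Cx3cr1 median they were 0.70, 0.62, 0.55, 0.47 and -0.58. The permutations moved libraries freely across groups, so differences between groups enter these p-values. The 3 NestinTK-GCV+ libraries, which are among the 10 controls, had the highest group means of Cx3cr1, C1qa, Trem2, Aif1 and Csf1r. They had the lowest group mean of P2ry12. Correlation within groups was not tested. The remaining pairs were Aif1 with Trem2 (r = 0.70, rho = 0.74) and Csf1r with C1qc (r = -0.67, rho = -0.62), with permutation p-values for r adjusted over the 36 pairs of 0.0295 and 0.0364. Csf1r with C1qc missed the threshold with rho (0.0617), as did Cx3cr1 with Csf1r. Csf1r with Trem2 passed with rho only (rho = 0.69, permutation p adjusted over the 36 pairs 0.0355, r = 0.54), whereas its r was -0.71 in the SVZ.

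The 3 C1q chains, whose products form 1 molecule, had no pair past the adjusted threshold in either tissue. Pearson's r was 0.16 for C1qa with C1qb, -0.15 for C1qa with C1qc and -0.39 for C1qb with C1qc there (rho 0.029, -0.13 and -0.45), and 0.24, 0.27 and 0.46 in the SVZ (rho 0.17, 0.26 and 0.57). The smallest permutation p for r adjusted over 36 pairs was 0.273 in the striatum and 0.439 in the SVZ among these pairs. The striatum libraries held 41 to 134 counts of C1qb, 89 to 173 of C1qc and 387 to 1042 of C1qa.

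**Figure D5:**
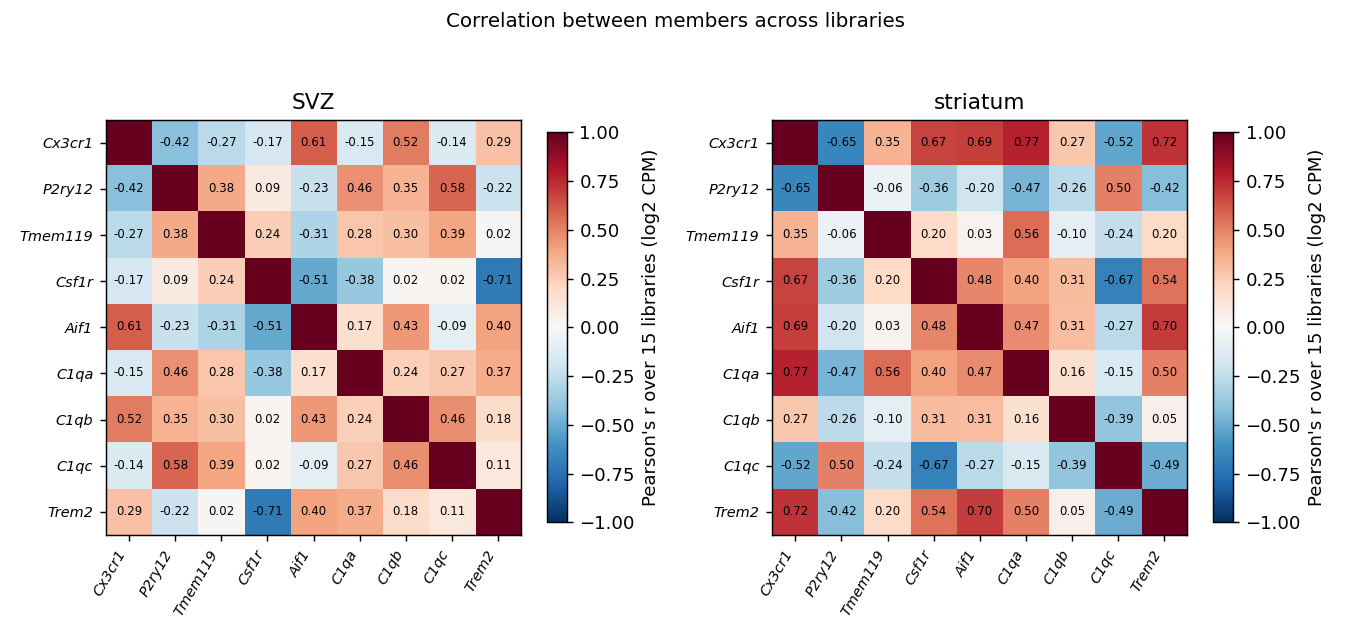
Pearson's r of log2 CPM for each pair of the 9 genes over the 15 SVZ (left) and 15 striatum libraries (right), with colour from -1 to 1. In the striatum Cx3cr1 forms a block of positive values with Csf1r, Aif1, C1qa and Trem2 (0.67 to 0.77) and is negative with P2ry12 (-0.65), while in the SVZ its values with these 4 genes run from -0.17 to 0.61.

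The 5 genes outside the 9 whose log2 CPM was most like the mean scaled level of the 9 were in neither tissue genes of the microglia lists. In the SVZ these were Utp14b (r = 0.85), Gstm2-ps1 (0.81), the astrocyte gene Aldoc (0.81), 2900052N01Rik (0.79) and Rpl3 (0.78). In the striatum they were Oaz2 (0.88), Eif2b5 (0.88), Dync1li2 (0.87), Emc3 (0.87) and Lrrc58 (0.86). The first gene of the microglia lists was P2ry13 in the SVZ (r = 0.75, rank 9) and Laptm5 in the striatum (r = 0.77, rank 66). These are descriptions over 15 libraries and carry no test.

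Other genes of the same pathways were read from lists. Of 28 further microglia genes, all tested, 18 were above and 10 below 0 in the ablated SVZ and 12 above and 16 below in the ablated striatum, with medians of 0.12 and -0.064. None was called, and 1 in each tissue had an unadjusted p under 0.05. The fractalkine gene Cx3cl1 had 936 ± 171 CPM in ablated and 925 ± 132 in control SVZ libraries (log2 fold change 0.050, SE 0.131), and a log2 fold change of -0.021 (SE 0.115) in the striatum. The Csf1r ligand Il34 had log2 fold changes of -0.044 (SE 0.522) and -0.16 (SE 0.206) in SVZ and striatum, and the other ligand Csf1 had 0.79 (SE 0.546) and -0.15 (SE 0.331). In the striatum Il34 had 179.9, 230.2 and 167.7 CPM in the NestinTK-GCV+ libraries, narrowly above every other library (52.0 to 166.6 CPM). Of all genes, 13.0% did not overlap between the 2 GCV groups and 20.0% did not between NestinTK-GCV+ and NestinTK-PBS+ libraries. The log2 fold change of Il34 between the 2 GCV groups was -0.58 (SE 0.224, adjusted p = 0.163). The Trem2 adaptor gene Tyrobp had -0.071 (SE 0.300) and 0.31 (SE 0.235), and the lipid carrier gene Apoe, which astrocytes and microglia both express, had -0.29 (SE 0.168) and -0.044 (SE 0.116). Itgam, which encodes the complement receptor chain CD11b, had 0.67 (SE 0.606) and 0.31 (SE 0.204). None of these differences passed an adjusted p of 0.05.

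Of the complement components downstream of or beside C1q, 8 of 19 passed the filter in the SVZ (4 above and 4 below 0) and 5 of 19 in the striatum (4 above and 1 below), with none called. C3, the central component, had medians of 0 CPM in ablated and 0.765 CPM in control SVZ libraries, with highest values of 7.05 CPM (60 counts) and 15.3 CPM (139 counts), and at most 10 counts in a striatum library. C4b had 22.0 ± 16.9 and 34.7 ± 23.0 CPM in ablated and control SVZ, and 28.3 ± 6.92 and 30.6 ± 7.07 CPM in the striatum. Among 22 complement regulators and receptors, 19 were tested in the SVZ and 17 in the striatum, and each tissue had 1 called gene. Csmd1, a membrane inhibitor of complement made by neurons, was called higher in the ablated SVZ at 63.4, 101, 129, 20.7 and 76.9 CPM beside 13.6 to 54.2 CPM in controls (log2 fold change 1.26, SE 0.361, adjusted p = 0.347). C3ar1, the receptor for C3a, was called higher in the ablated striatum at 1.76, 3.62, 4.79, 3.40 and 2.65 CPM, which is 5 to 13 counts, beside 0.477 to 3.20 CPM in controls (log2 fold change 1.56, SE 0.489, adjusted p = 0.215). C3ar1 passed the filter on low counts in the striatum only through the ablated libraries. Too few control libraries exceeded 1 CPM before TMM scaling, with a scaled control median of 0.723 CPM. The filter thus favoured a higher value in the ablated group, and the call is not support for a difference. In the SVZ the C3ar1 value was -2.01 with an SE of 1.49.

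Of 25 genes tied to microglial activation, 17 were tested in each tissue. In the SVZ 3 lay above and 14 below 0 (median -0.36), and 1 was called: Cd63, a lysosomal membrane gene of many cell types, at 43.3 ± 26.7 CPM in ablated and 134 ± 101 in control libraries (log2 fold change -1.59, SE 0.529, adjusted p = 0.373). Its 2 highest control values, 342 and 267 CPM, were in 2 of the 3 libraries rich in Ttr. In the NestinTK-GCV+ libraries it had 41.4, 30.7 and 58.7 CPM, which overlapped the ablated ones, and its log2 fold change between the 2 GCV groups was 0.021 (SE 0.504). In NestinTK- mice, GCV against PBS gave 4 activation genes above and 13 below 0 in the SVZ (median -0.71, 2 called lower), and between the 2 GCV groups 10 lay above and 7 below 0. In the striatum 6 lay above and 11 below 0 (median -0.075), with none called. Markers of border macrophages and monocytes summed to 3.80 to 25.2 CPM in ablated and 5.03 to 24.9 CPM in control SVZ libraries, and to 9.87 to 16.6 and 4.79 to 15.6 CPM in the striatum, far below the 9 genes.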

How the data were processed

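SVZ and striatum RNA of 15 mice was sequenced as 1 library per mouse and tissue. For the SVZ the SMART-Seq v4 kit was used, and for the striatum QuantSeq, which reads 3′ tags. Per the labels and the study's methods, the authors trimmed single-end reads (Trimmomatic 0.36 in the processing notes), aligned them with STAR 2.5.3a to mm10 (GRCm38) and deposited raw counts per gene made with featureCounts, with no strand setting stated. All sample columns were used (0 left out). The counts were tested within each tissue with edgeR 4.0.16 (R 4.3.3) by quasi-likelihood fits with TMM factors over genes above 1 CPM in at least 3 libraries, following the study's filter and call (nominal p of at most 0.01 and at least 2-fold), and p-values were adjusted over each tissue's tested genes by Benjamini-Hochberg. All tests are two-sided. One fit set 5 ablated against 10 control libraries, and another held the 4 groups. The difference between tissues was tested with limma 3.58.1 on each mouse's SVZ minus striatum log2 CPM (prior count 2), paired by the mouse number in the titles, which marks the same animal. Within a tissue the groups are different mice. Log2 fold changes carry standard errors and 95% intervals, which describe the uncertainty of the estimated difference, while SDs describe the spread between libraries.

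Alternatives were DESeq2 (1.42.0) and its size factors, limma-voom, no filter, each control group alone, the mouse number series as a covariate, and each library left out. The tests were checked on simulated counts. Members and lists were chosen with earlier results of these data known. Named beyond the 9 members were fixed partners (Cx3cl1, Il34, Csf1, Tyrobp, Apoe, C3, C4b, C3ar1 and Itgam), called genes of the pathway lists, and the 5 genes most like the members by Pearson's r. Hmgxb3, Dcx, Mag, Ermn, P2ry13 and Laptm5 were named after their values were seen. GCV and PBS libraries carry separate runs of library numbers in both tissues, so library order and treatment cannot be told apart. Gene positions are from GENCODE vM21 and promoter windows of 250 bases from RefSeq, both on GRCm38.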

Additional observations from a re-analysis of the deposited data

Results flagged for a closer look

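Single outlying libraries were sought among the 5 NestinTK+GCV+, the 4 NestinTK+PBS+ and the 10 pooled control libraries of each tissue. The gap between the most extreme library and its neighbour was compared with the range of the set by Dixon's criterion. Of the 54 tests of this kind 2 passed, where chance gives about 1 in 20. Both came from the SVZ library of NestinTK+GCV+ replicate 5. Its Aif1 level was -0.60 log2 CPM, with the next ablated library at 3.35, and its C1qb level was 5.50 log2 CPM, with the next at 6.68. The same library was not low for Csf1r (134 CPM) or P2ry12 (48.7 CPM).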

How the results depend on the processing

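Between ablated and control mice no member was called under any alternative in either tissue. The direction of the members' log2 fold changes was the same in 209 of 216 SVZ settings and 185 of 207 striatum settings, and reversed in 7 and 22. In the SVZ these were C1qc with NestinTK-GCV+ as the only controls (-0.0022), Cx3cr1 and Aif1 with NestinTK+PBS+ as the only controls (0.035 and 0.017) or with the mouse number series as a covariate (0.17 and 0.013), and Cx3cr1 when libraries were left out in turn (-0.31 to 0.11). In the striatum they were P2ry12 with limma-voom (0.027), NestinTK-GCV+ alone (0.32), the series (0.16) and libraries left out (-0.078 to 0.073), Csf1r with NestinTK-PBS+ (0.038) or NestinTK+PBS+ alone (0.061), Tmem119 with NestinTK+PBS+ alone (0.11) and libraries left out (-0.41 to 0.11), and C1qc with NestinTK+PBS+ alone (-0.15), the series (-0.063) and libraries left out (-0.073 to 0.054). With NestinTK-GCV+ alone the median of the members was 0.0027 in the SVZ and -0.43 in the striatum, and with libraries left out it ran from 0.13 to 0.36 and from -0.29 to -0.13. Called genes over the whole SVZ table (260) numbered 1342 with no filter, 493 by DESeq2, 171 by limma-voom, 74 with NestinTK-GCV+ alone, 158 with NestinTK+PBS+ alone, 158 without the libraries rich in Ttr and 196 to 297 with libraries left out. In the striatum (107) they numbered 330 with no filter, 190 by limma-voom, 365, 167 and 189 with NestinTK-GCV+, NestinTK-PBS+ and NestinTK+PBS+ alone, 175 with the series and 72 to 132 with libraries left out. The causes were not tested. For the difference between tissues, 1 gene passed an adjusted p of 0.05 with pairing by mouse, 5 with no replicate block, 0 over genes with at least 1 count in both tissues, and 0 to 4 with mice left out, and Cx3cr1 and Aif1 reversed with mice left out (-0.29 to 0.32 and -1.07 to 0.17). Members called between the GCV groups of the SVZ ranged from 0 to 2 with libraries left out, and the share of all genes called in those fits was not counted. Members had 19 to 1127 counts per striatum library, and the standard errors of their ablated against control values were 0.118 to 0.258 there and 0.196 to 0.611 in the SVZ.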
